A study of Mus musculus with 10 samples.

Results

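The genes described here are 10 growth factor and receptor genes of wound repair: the ligand genes Fgf2, Fgf7, Fgf10, Hgf and Pdgfa and the receptor genes Fgfr1, Fgfr2, Fgfr3, Met and Pdgfrb. They were chosen by name, with earlier results of these data known. Each was read on the brightest array feature that the platform annotation assigns to that gene alone. All 10 matched a single such feature, out of 30748 genes with one. The samples were wound-edge skin of db/db mice, a diabetic strain without functional leptin receptor (genotype given as BKS(D)-Leprdb/JOrlRj, C57BL/6 background). The miR-132 mimic was given to 5 mice and the control mimic to 5, so every animal was diabetic and wounded and no unwounded or non-diabetic skin is compared. Per the labels' protocols, the mice were males aged 11 weeks with 2 full-thickness back wounds each from a 4 mm punch. The mimic, 0.5 nmol in 100 µl, went into the wound edge at 4 points right after wounding, and tissue was taken 6 days after injury. The number of wounds behind each array was not given in the sources used here. The mimic was not directed to a cell type, and the tissue is a mixture of cells.

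Fibroblast growth factors bind receptor tyrosine kinases together with heparan sulphate. Fgf7, also called keratinocyte growth factor, and Fgf10 are made by mesenchymal cells and act on the epithelial splice form of the Fgfr2 protein. Hepatocyte growth factor (Hgf) is likewise secreted mainly by mesenchymal cells as an inactive precursor, is cut into its active form by serine proteases, and signals through Met on epithelium and endothelium. Platelet-derived growth factors act chiefly on fibroblasts and on the mural cells of vessels, which carry Pdgfrb. In skin wounds these ligands are known for driving keratinocyte migration, granulation tissue and new vessels. An array measures messenger RNA, so it shows neither cleavage of a precursor nor receptor activity.

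The treatment was a mimic, a synthetic RNA that acts like a mature microRNA and lowers messenger RNAs that pair with its seed. The mature sequences below are shown because the seed, bases 2 to 8 in capitals, is what a mimic of this kind is designed around. They are from RefSeq (GRCm38.p6), at chr11:75173723-75173744 and chr11:75173443-75173464, both on the plus strand. The labels do not state which arm the mimic copied, and the 3p arm is printed as the one usually meant by the name.
mmu-miR-132-3p: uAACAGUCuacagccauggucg
mmu-miR-212-3p: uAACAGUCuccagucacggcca
Both share 1 seed, and among 1738 mature mouse microRNAs of that table these 2 carry it. On the array, the Mir132 feature measured 3.38 ± 0.41 log2 signal in miR-132 wounds and 3.21 ± 0.25 in control wounds (SD, n = 5 each). The Mir212 feature measured 3.08 ± 0.17 and 3.12 ± 0.19. Both lay below the level filter used here, and they are assigned to the microRNA genes, not to the synthetic mimic. The 2 features therefore give no reading of how much mimic reached the tissue.

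Values are log2 signal as deposited, taken as log2 from their range of 1.77 to 19.93. Depth has no counterpart on an array, and the number of arrays limits the precision. Levels are compared between groups for 1 gene at a time, never between genes, since features differ in brightness. The basal keratinocyte keratin gene Krt14 stood at 19.84 to 19.93 and the collagen gene Col1a1 at 16.5 to 17.7 on all 10 arrays, as labelled for skin. The array's spread from the 10th to the 90th percentile was 4.41 to 4.92 in miR-132 wounds, narrowest on replicates 2 and 5, and 4.81 to 5.03 in control wounds. The hybridisation spike-ins averaged 10.57 to 10.98 on miR-132 arrays and 10.43 to 10.61 on control arrays. The negative control features had medians of 4.6 to 4.82 on miR-132 arrays and 4.74 to 4.895 on control arrays. The level filter of 4.17 lay below these, so a gene above the filter need not be above background.

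The growth factor and receptor genes differed little between miR-132 and control wounds, and none passed limma's adjusted threshold. Of the 10, 9 lay above the level filter and were tested, all but Fgf10. The median difference of these 9 was -0.10 on the log2 scale, against -0.016 for all 17643 genes tested. Their means were lower with miR-132 for 7 and higher for 2, where 53.6% of all tested genes averaged lower. At an adjusted p under 0.05, 0 of 9 were called, beside 0 of 17643 over all genes (0% called). At an unadjusted p under 0.05 there was 1 of 9, Met, on the lower side, where 5.61% of all genes were called lower and 8.08% in either direction. Groups without overlap were found for 0 of 9 members, against 0.93% of all genes (0.646% on the lower side). The 95% intervals of the 9 differences, not adjusted for their number, lay between -0.81 and 0.61. A 2-fold difference in signal (1 on this scale) in either direction was outside each of them. For the dim Fgf2 and Pdgfa, near the level of the negative controls, a difference in signal need not equal that in RNA.

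The sign of a small difference went with signal level over the whole array, a comparison added after seeing the data. Of the 4762 tested genes averaging below 5, 65.4% were higher with miR-132 (median 0.046). Of the 2874 genes between 6 and 7, 61.6% were lower (median -0.05), and of the 1221 between 8 and 9, 68.5% were lower (median -0.106). After a further quantile normalization those medians were 0.0062, 0.025 and 0.012. Under that normalization 4 of the 9 growth factor and receptor genes averaged lower, in place of 7, and Met had an unadjusted p of 0.135. The part of signal level in each single value was not tested.

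**Figure D1:**
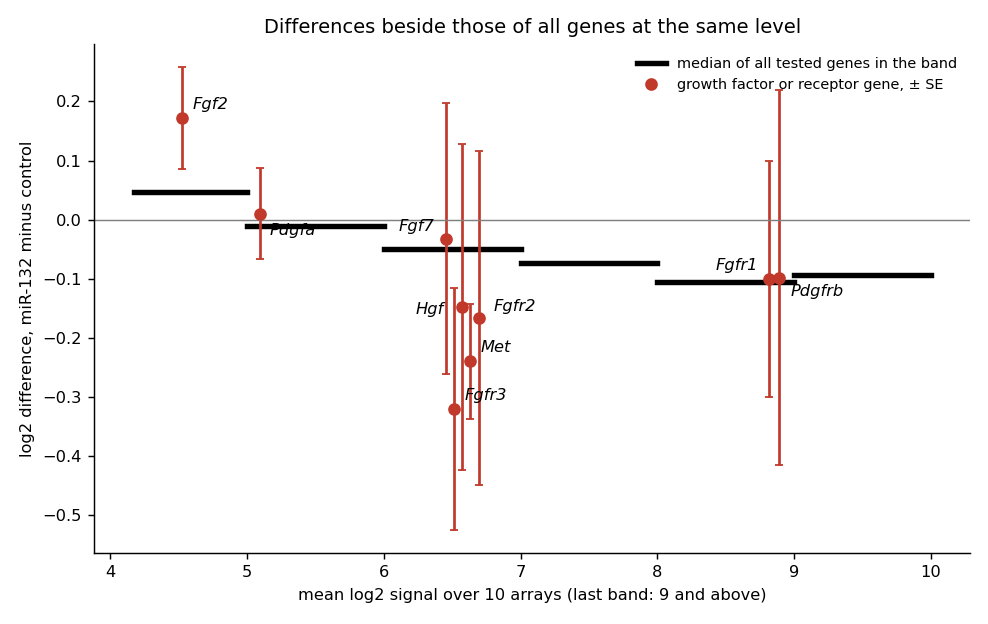
Each red point is 1 tested growth factor or receptor gene, with its mean log2 signal over the 10 arrays on the horizontal axis and its log2 difference (miR-132 minus control, ± SE) on the vertical axis. Black bars are the medians of all tested genes in that band of level, from 0.046 below 5 to -0.106 between 8 and 9, and Fgfr1 and Pdgfrb lie on their band's bar.

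Among the FGF ligands, Fgf2 (gene ID 14173, chromosome 3), a mitogen of fibroblasts and endothelium, had the smallest p. Its log2 signal was 4.50, 4.73, 4.35, 4.69 and 4.76 in miR-132 wounds (replicates 1 to 5), against 4.34, 4.47, 4.52, 4.35 and 4.49 in control wounds. Of the miR-132 arrays, 3 lay above every control array, while replicates 1 and 3 lay within the control range. The difference was 0.17 ± 0.09 (SE, n = 5 per group), with limma's adjusted p at 0.641 and an exact permutation p of 0.0873. Without miR-132 replicate 3 it was 0.24, with limma's adjusted p at 0.185. Fgf2 is a dim feature, just above the level filter of 4.17, in the band where most genes averaged higher. Its signal was near or below the medians of the negative controls (4.6 to 4.82 on miR-132 arrays, 4.74 to 4.895 on control arrays). Whether it was above background was not tested.

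Fgf7 (gene ID 14178, chromosome 2), the ligand that dermal fibroblasts send to keratinocytes, averaged within 0.04 of the control mean. It measured 6.50, 6.21, 5.92, 7.19 and 6.37 in miR-132 wounds, against 6.20, 6.22, 6.87, 6.67 and 6.39 in control wounds. The highest array and the lowest array both came from miR-132 wounds, replicates 4 and 3. The difference was -0.03 ± 0.23 (SE), with an interval of -0.54 to 0.48 and limma's adjusted p at 0.984. Its sign turned after quantile normalization (0.04) and without miR-132 replicate 3 (0.0975), among other settings.

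Fgf10 (gene ID 14165, chromosome 13), the second ligand of the same receptor form, lay below the level filter and was fitted without it. It measured 3.87, 4.03, 3.60, 3.93 and 3.95 in miR-132 wounds, against 3.81, 3.92, 4.00, 3.79 and 3.61 in control wounds. The groups overlapped over nearly their whole range. The difference was 0.05 ± 0.09 (SE), with limma's adjusted p at 0.875.

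Hgf (gene ID 15234, chromosome 5), the ligand of Met, spread widely in both groups. It measured 6.85, 6.08, 5.84, 6.83 and 6.89 in miR-132 wounds, against 6.47, 6.12, 6.79, 7.33 and 6.52 in control wounds. Of the miR-132 arrays, 3 lay close together inside the control range and 2, replicates 2 and 3, lay below every control array. The difference was -0.15 ± 0.28 (SE), with an interval of -0.76 to 0.47 and limma's adjusted p at 0.910. Without control replicate 4, the highest of all 10, it was 0.023, and without miR-132 replicate 3, the lowest, it was 0.017. In bulk tissue, fewer cells of a type and less RNA per cell cannot be told apart, here and below.

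Pdgfa (gene ID 18590, chromosome 5), which encodes the A chain of platelet-derived growth factor, had nearly equal means. It measured 5.20, 5.07, 4.99, 4.94 and 5.30 in miR-132 wounds, against 5.20, 5.15, 5.05, 5.07 and 4.98 in control wounds. The miR-132 arrays enclosed the control arrays on both sides. The difference was 0.01 ± 0.08 (SE), and its interval of -0.16 to 0.18 was the narrowest of the 9.

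**Figure D2:**
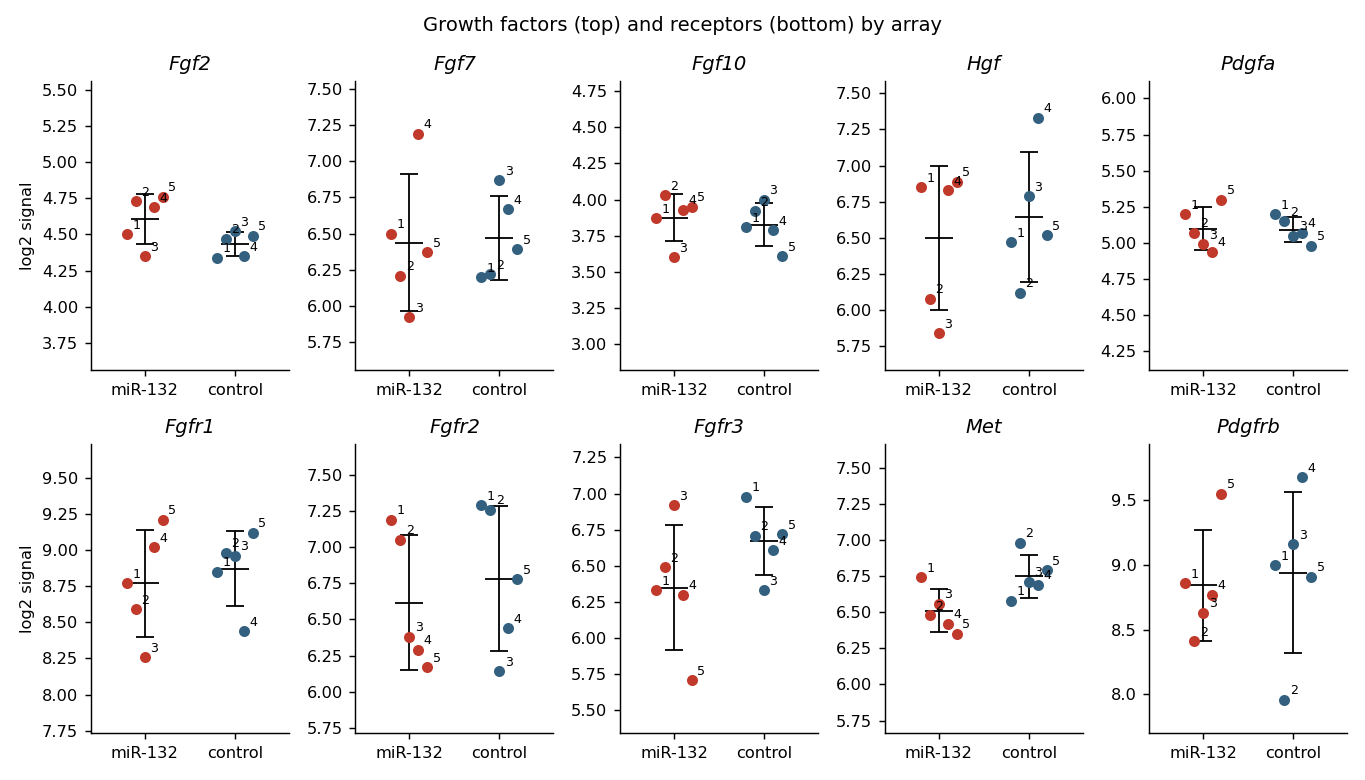
Log2 signal of each gene on every array, ligands in the top row and receptors below, with miR-132 wounds in red and control wounds in blue. Numbers are replicates, bars are mean ± SD (n = 5), and the vertical axes differ in position while spanning at least 2 log2 units. The groups overlap in all 10 panels, and Met shows the shift with the least overlap.

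Among the receptors, Met (gene ID 17295, chromosome 6), through which Hgf signals, averaged 1.18-fold lower with miR-132. It measured 6.74, 6.48, 6.56, 6.42 and 6.35 in miR-132 wounds, against 6.58, 6.98, 6.71, 6.69 and 6.79 in control wounds. All 5 miR-132 arrays lay below the control mean, and 4 of them below every control array. Replicate 1 of the miR-132 wounds lay inside the control range. The group means were 6.51 ± 0.15 in miR-132 wounds and 6.75 ± 0.15 in control wounds (SD, n = 5 each), a difference of -0.24 ± 0.10 (SE). Limma's unadjusted p was 0.0333, its adjusted p 0.597, and the exact permutation p 0.0476, where the design allows no less than 0.00794. Leaving out 1 array at a time gave -0.30 to -0.18 (limma's adjusted p over all settings 0.333 to 0.836), so Met averaged lower in all settings tried and passed the adjusted threshold in none. Basal keratinocyte markers averaged lower beside it for 8 of 8 genes, though Krt14 and Krt15 by -0.02 each. Their array means were 11.02 to 11.79 in miR-132 wounds and 11.25 to 12.17 in control wounds. Krt5 and Krt14 of that list reached the upper limit of the scale, and Krt15 ran from 5.74 to 10.96. The part of keratinocyte content in the value of Met was not tested.

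The other FGF and PDGF receptors had wider spreads. Fgfr3 (gene ID 14184, chromosome 5), a receptor present in epidermis, measured 6.33, 6.49, 6.92, 6.30 and 5.71 in miR-132 wounds, against 6.98, 6.71, 6.33, 6.61 and 6.72 in control wounds. Its lowest array was miR-132 replicate 5, while miR-132 replicate 3 was second only to control replicate 1. The difference was -0.32 ± 0.20 (SE), with limma's adjusted p at 0.699. Without miR-132 replicate 3 it was -0.46 (unadjusted p of 0.0288, limma's adjusted p of 0.288), and without miR-132 replicate 5 it was -0.16. With replicate 3 left out, 2482 of 17643 genes had an unadjusted p under 0.05, against 1426 with all arrays.

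Fgfr2 (gene ID 14183, chromosome 7), the receptor gene whose epithelial splice form receives Fgf7 and Fgf10, spanned nearly the same range in both groups. It measured 7.19, 7.05, 6.38, 6.29 and 6.17 in miR-132 wounds, against 7.29, 7.26, 6.14, 6.44 and 6.78 in control wounds. The feature does not separate splice forms. The difference was -0.17 ± 0.28 (SE), with an interval of -0.80 to 0.46 and limma's adjusted p at 0.899. With the hybridisation spike-ins as a covariate it was 0.33 ± 0.35 (SE). The spike-ins were mostly higher on miR-132 arrays, so that covariate is partly confounded with the treatment.

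Fgfr1 (gene ID 14182, chromosome 8), the FGF receptor of mesenchymal cells, had a difference of -0.10 ± 0.20 (SE, limma's adjusted p of 0.920). It measured 8.77, 8.59, 8.26, 9.02 and 9.21 in miR-132 wounds, against 8.85, 8.98, 8.96, 8.44 and 9.12 in control wounds. Pdgfrb (gene ID 18596, chromosome 18), carried by pericytes and fibroblasts, measured 8.86, 8.41, 8.63, 8.77 and 9.55 in miR-132 wounds, against 9.0, 7.96, 9.16, 9.68 and 8.91 in control wounds. Control arrays of Pdgfrb enclosed all miR-132 arrays. Its difference was -0.10 ± 0.32 (SE, limma's adjusted p of 0.955), and its interval of -0.81 to 0.61 was the widest of the 9. For both genes the difference lay at the median of all genes of that level, and both turned slightly higher after quantile normalization (0.044 for Fgfr1 and 0.025 for Pdgfrb).

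**Figure D3:**
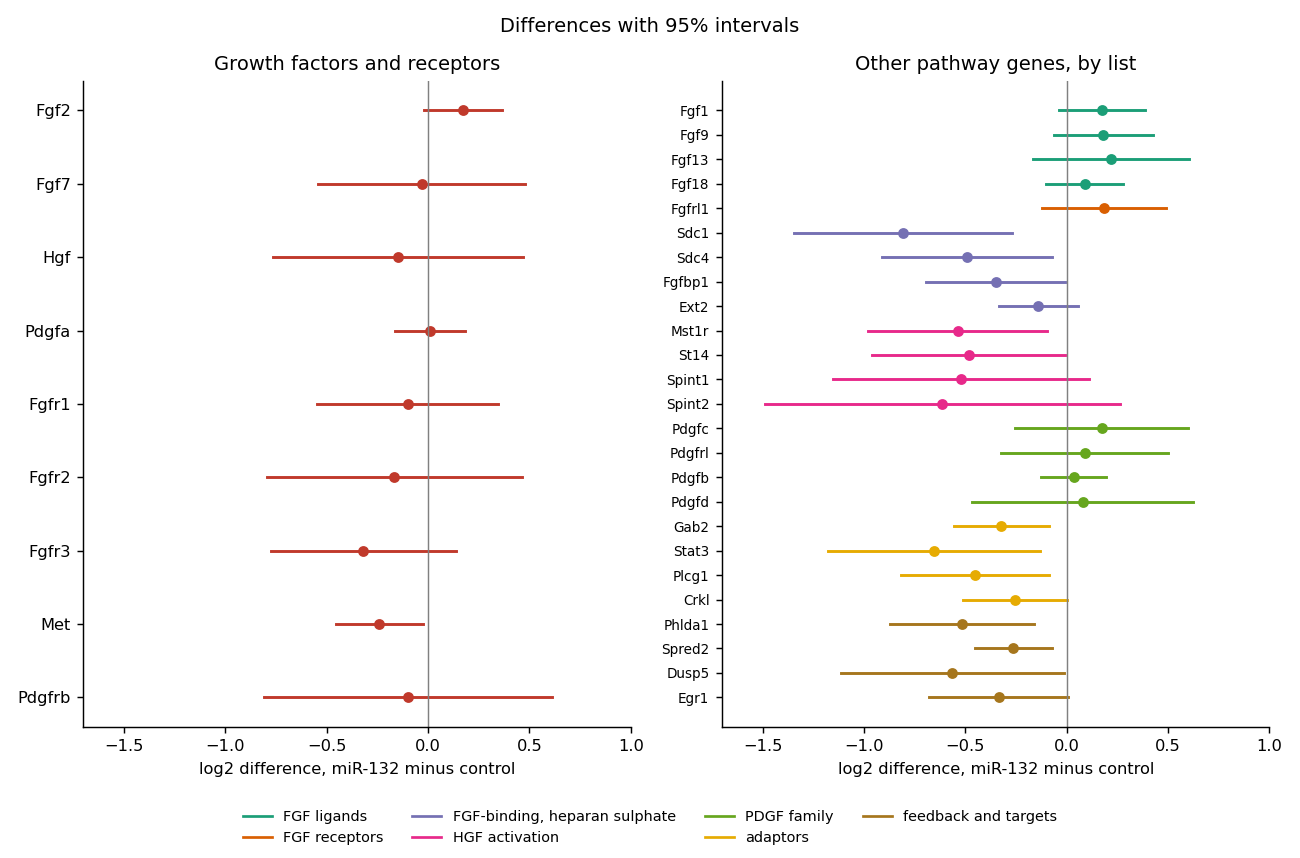
Log2 differences (miR-132 minus control, points) with 95% intervals (lines, not adjusted for their number) for the 9 tested growth factor and receptor genes, left, and for other pathway genes coloured by list, right. Met is the one gene at left whose interval leaves out 0, and the genes at right furthest below 0 belong to heparan sulphate carriers, HGF activation, adaptors and feedback.

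Spread between mice differed among these genes. In both groups, 6 of the 9 tested had an SD above the median of all genes, and 3, Fgf2, Met and Pdgfa, had one below it. The median SD of the 9 tested members was 0.43 in miR-132 wounds and 0.26 in control wounds, against 0.23 and 0.17 over all genes tested. Of 5 pairs of a ligand gene with a receptor gene of its family, 0 passed adjustment over the pairs (permutation test, two-sided, 100000 resamples). Hgf and Met had Pearson's r of -0.11 (permutation p of 0.761, adjusted 0.951) and Spearman's rho of -0.10 (p of 0.784). Without the 2 arrays farthest from the median of Hgf, r was -0.38. Fgf7 and Fgfr2 had r of -0.46 (permutation p of 0.178, adjusted 0.446) and rho of -0.49 (p of 0.154), which was -0.07 without the 2 farthest arrays. Fgf2 and Fgfr1 had r of 0.50 (permutation p of 0.143, adjusted 0.446) and rho of 0.49 (p of 0.158), with r of 0.66 without the 2 farthest arrays. After quantile normalization that pair had r of 0.80 and an adjusted permutation p of 0.0239, with Fgf2 near the level of the negative controls. Pdgfa with Pdgfrb and Fgf10 with Fgfr2 had r of 0.22 and -0.0079 (adjusted permutation p of 0.893 and 0.980). The PDGF receptor gene Pdgfra had no feature assigned to it alone, so Pdgfa could not be set beside it.

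The 9 tested growth factor and receptor genes were set beside the mean level of 12 lists of cell type markers, a comparison added after seeing the data. Of 108 relations, 0 passed adjustment and 8 had an unadjusted permutation p under 0.05. The 4 closest, each with an adjusted permutation p of 0.0891, were Fgfr1 with fibroblast markers (r of 0.85, rho of 0.73), Hgf with endothelium markers (r of 0.84, rho of 0.82), Met with basal keratinocyte markers (r of 0.82, rho of 0.78) and Fgfr2 with the same list (r of 0.81, rho of 0.79). Without the 2 arrays farthest from the member's median these were 0.68, 0.61, 0.62 and 0.82. With each group's mean taken out they were 0.85, 0.83, 0.83 and 0.81. The basal keratinocyte mean weighs its genes unevenly. Krt15 had the widest range of that list, 5.74 to 10.96, while Krt5 and Krt14 sat mostly at the upper limit of the scale. Pdgfrb came closest to endothelium markers (r of 0.72, adjusted permutation p of 0.429) and Fgf7 to fibroblast markers (r of 0.66, adjusted permutation p of 0.571). Fgfr1 also went with hair follicle and sebaceous gland markers (r of 0.64, adjusted permutation p of 0.592). Fgfr3 had the one negative relation of the 8, with endothelium markers (r of -0.70, adjusted permutation p of 0.520). Members and markers were read on the same arrays and share their normalization.

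**Figure D4:**
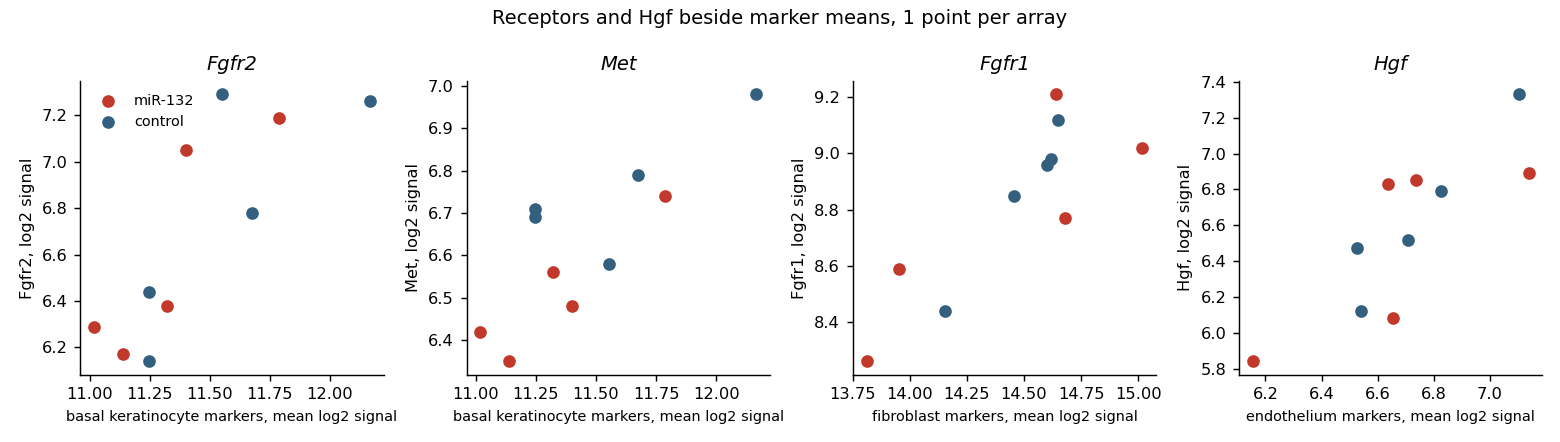
Log2 signal of Fgfr2, Met, Fgfr1 and Hgf (vertical axes) against the mean log2 signal of a list of cell type markers (horizontal axes), 1 point per array, miR-132 in red and control in blue. Arrays with more marker signal have more of the gene in each panel, with Pearson's r of 0.81, 0.82, 0.85 and 0.84 over the 10 arrays.

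Genes with the most similar course over the 10 arrays were named by the highest r among the tested genes. Predicted genes, pseudogenes and small RNAs were left out by symbol. This is a description of a search over the rest of the 17643 genes and carries no p. For Met they were Zmym5 (0.95), Zfp189 and Usp31 (0.93 each). For Fgfr2 they were Lrp4 (0.96), Mill1 (0.95) and Susd2 (0.94). Fgfr3 went most closely with Hook2 (0.97), Il17re and Trim62 (0.95 each). For Hgf they were Mmrn2 (0.96), Ppat (0.95) and Ptprc (0.93), and for Pdgfrb Tnc (0.94), Tmem39a and Stt3a (0.92 each). The course of Fgfr1 was most like that of Ccn1 (0.94), B4galt5 and Lpar1 (0.92 each). Fgf7 was matched best by Mtr and Mthfd1 (0.91 each), Fgf2 by Grk4 (0.93) and Pdgfa by Marchf8 (0.89).

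Around Hgf and Met, the related receptor gene Mst1r, the activating protease gene St14 and the inhibitor genes Spint1 and Spint2 averaged lower with miR-132. Of 11 listed genes, 6 lay above the level filter, these 4 with Hgf and Met, and all 6 averaged lower (median -0.50), where 53.6% of all genes did. This list and those below were chosen with earlier results of these data known, so their counts are descriptions only. Below the filter, the protease genes Hgfac, Hpn and Plg and the inhibitor gene Serpina5 stood at 0.10, 0.11, 0.12 and 0.16, and Mst1, the ligand of Mst1r, at -0.03. None passed adjustment, and 3, Met among them, had an unadjusted p under 0.05, where 5.61% of all genes were called lower. Mst1r, the receptor of the related macrophage-stimulating protein, measured 5.32, 5.50, 6.37, 5.50 and 5.35 in miR-132 wounds, against 6.08, 6.07, 5.96, 6.13 and 6.49 in control wounds. Of the miR-132 arrays, 4 lay below every control array and replicate 3 lay within the control range. The difference was -0.54 ± 0.20 (SE, limma's adjusted p of 0.597), and without miR-132 replicate 3 it was -0.73 ± 0.11 (SE) and passed (limma's adjusted p of 0.0420). In that setting, which drops the miR-132 array where Mst1r was highest, 52 of 17643 genes passed, against 0 with all arrays. St14, which encodes matriptase, a membrane protease of epithelium that can cut the Hgf precursor, was likewise highest on replicate 3 among miR-132 arrays, there above every control array. It measured 5.95, 6.24, 7.02, 5.96 and 5.85 in miR-132 wounds, against 6.75, 6.56, 6.43, 6.78 and 6.92 in control wounds. Its difference was -0.48 ± 0.21 (SE), and without miR-132 replicate 3 it was -0.69 ± 0.12 (limma's adjusted p of 0.0610).

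The inhibitors of those proteases, Spint1 and Spint2, averaged -0.52 ± 0.28 and -0.61 ± 0.39 (SE, limma's adjusted p of 0.656 and 0.697). On miR-132 replicate 3 they stood at 7.83 and 7.40, above every control array. On the other miR-132 arrays Spint1 was 6.22 to 6.86, against 7.08 to 7.58 in control wounds, and Spint2 was 5.26 to 5.94, against 6.03 to 7.34. Without replicate 3 the differences were -0.78 for Spint1 and -0.96 for Spint2 (limma's adjusted p of 0.102 and 0.154). Basal keratinocyte markers, whose array means are given above beside Met, averaged lower as well, and their part in these values was not tested. Their members differed on miR-132 replicate 3: Trp63, the transcription factor of basal keratinocytes, stood at 8.31 there, against 6.74 to 7.66 on the other miR-132 arrays and 8.0 to 8.30 in control wounds. Itga6, Itgb4 and Col17a1 on that array were likewise above their control means, Krt15 (5.74) and Dst (8.60) were below them, and Krt5 and Krt14 were at the upper limit.

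**Figure D5:**
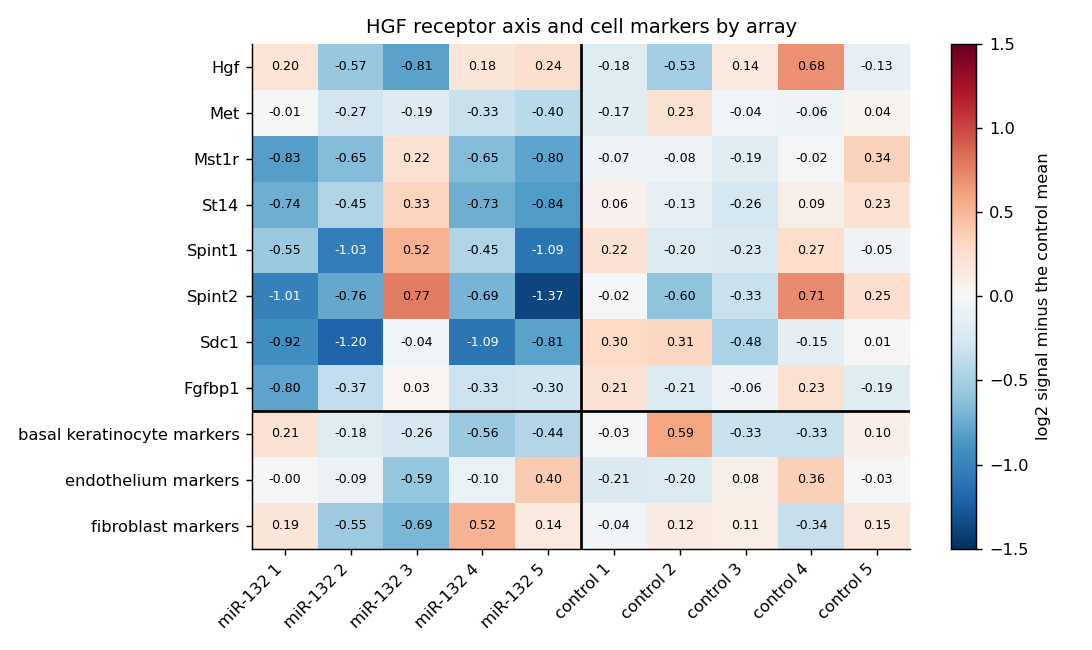
Log2 signal minus the control mean for Hgf, its receptor and activation genes, 2 FGF-binding genes and the means of 3 marker lists (rows) on each array (columns, miR-132 left of the line, control right of it). Blue is lower and red higher than the control mean. Mst1r, St14, Spint1 and Spint2 are lower on miR-132 replicates 1, 2, 4 and 5 and higher on replicate 3, which Hgf does not follow.

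Genes for FGF-binding and heparan sulphate had no common direction. Of 15 tested, 9 averaged lower (median -0.14), near the 53.6% of all genes that did, and 3 had an unadjusted p under 0.05 on the lower side, where 5.61% of all genes were called lower. These were Sdc1 at -0.81 ± 0.24, Sdc4 at -0.49 ± 0.19, both syndecans that carry heparan sulphate, and Fgfbp1, which releases FGFs from the matrix, at -0.35 ± 0.15 (SE, limma's adjusted p of 0.597, 0.597 and 0.616). Ext2, a part of the heparan sulphate polymerase, stood at -0.14 ± 0.09. Named after their values were seen, the cell-surface carriers Gpc3, Sdc2 and Sdc3 averaged higher (0.29, 0.23 and 0.11), and Gpc1 and Gpc4 lower (-0.18 and -0.07). Sdc1 measured 7.94, 7.66, 8.82, 7.77 and 8.05 in miR-132 wounds, against 9.16, 9.17, 8.38, 8.71 and 8.87 in control wounds, so 4 of 5 miR-132 arrays lay below all controls. Of 7 tested FGF family genes listed as ligands, 6 averaged higher (median 0.17, 0 at an unadjusted p under 0.05, where 2.48% of all genes were called higher). Fgf13, whose protein acts inside the cell, stood at 0.22 ± 0.17, Fgf9 at 0.18 ± 0.11, Fgf1 at 0.17 ± 0.09 and Fgf18 at 0.09 ± 0.09 (SE). These 4 averaged below 5, in the band where most genes averaged higher and near or below the level of the negative controls. Fgfrl1, a receptor without a kinase domain, stood at 0.18 ± 0.14. Of 6 tested genes of the PDGF family, 5 averaged higher (median 0.056), with Pdgfc at 0.17 ± 0.19, Pdgfrl at 0.09 ± 0.18, Pdgfd at 0.08 ± 0.24 and Pdgfb at 0.03 ± 0.07.

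Downstream of the receptors, most adaptors averaged lower on the deposited values. Of 16 tested adaptors and signal relays, 15 averaged lower (median -0.13), where 53.6% of all genes did, and after quantile normalization 8 averaged lower. At an unadjusted p under 0.05 there were 4, all lower, where 5.61% of all genes were called lower. Beside them, neutrophil and skeletal muscle markers averaged lower for 8 of 8 genes each (medians -0.44 and -0.41) and adipocyte markers higher for 8 of 8 (0.44). Among the neutrophil markers, S100a8 and S100a9 sat at the upper limit of the scale on every array except miR-132 replicate 5 (19.29 and 19.53). The array means of those lists overlapped between groups: neutrophil markers at 10.22 to 10.84 in miR-132 wounds and 9.89 to 11.94 in control wounds, skeletal muscle markers at 9.92 to 13.16 in miR-132 wounds and 9.98 to 12.93 in control wounds, and adipocyte markers at 8.22 to 12.08 in miR-132 wounds and 8.17 to 10.94 in control wounds. Their part in the values of this and the other gene lists was not tested. Stat3, a transcription factor activated by receptors of growth factors and cytokines, stood at -0.66 ± 0.23, and the phospholipase gene Plcg1 at -0.45 ± 0.16. The docking protein gene Gab2 stood at -0.32 ± 0.11 and the adaptor gene Crkl at -0.26 ± 0.11 (SE, limma's adjusted p of 0.597 to 0.617 for the 4). Of 17 tested feedback inhibitors and target genes, 8 averaged lower and 9 higher (median 0.014), and 3 genes, all lower, had an unadjusted p under 0.05 (5.61% of all genes on that side). These were Phlda1 at -0.52 ± 0.16, Spred2, an inhibitor of the Ras pathway, at -0.26 ± 0.08, and Dusp5, a phosphatase of ERK, at -0.56 ± 0.25 (SE, limma's adjusted p of 0.597, 0.597 and 0.613). Spred2 measured 5.83, 5.66, 5.90, 5.60 and 5.91 in miR-132 wounds, against 6.00, 5.96, 6.07, 5.94 and 6.25 in control wounds, without overlap, which 0.646% of all genes showed on the lower side. Egr1, an early response transcription factor, stood at -0.34 ± 0.15. Named after their values were seen, Dusp6, Spry2 and Etv5, which FGF signalling is known to induce, stood at 0.02 ± 0.27, 0.01 ± 0.18 and 0.07 ± 0.05, with an interval for Dusp6 of -0.59 to 0.63.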

How the data were processed

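Affymetrix Expression Console 1.4 and RMA, which corrects background, normalizes arrays and summarises probes, are named in the submitters' processing notes for these Clariom D arrays (150 ng of total RNA). The deposited values were read as log2 signal, one column for each of 10 arrays, with 0 columns unmatched and 0 identical pairs. The array's genome build was not given in the sources used here. Of 72688 features, 31221 had 1 gene and 1529 several. Features with several genes were left out. Symbols were updated through gene identifiers (GRCm38.p6). Genes whose mean over all arrays exceeded 4.17, the median over features, were tested (17643). Groups came from the titles, miR-132 minus control, with limma 3.58.1 in R 4.3.3 (lmFit, eBayes with trend, Benjamini-Hochberg over all genes, two-sided). The labels name 5 mice per group. Correlations used numpy 2.4.6. The procedures were tested on simulated data. The members and lists were chosen with earlier results of these data known. Of each pathway list, the 4 genes outside the members with the smallest p are named. Alternatives were filter, normalization, variance model, array weights, replicate block, spike-in covariate and arrays left out.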

Additional observations from a re-analysis of the deposited data

Results flagged for a closer look

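Single arrays stood far from the rest of their group in 3 of 70 groups of 5 arrays, about as many as the 1 in 20 that chance gives, and in none of the 20 groups of the growth factor and receptor genes. Mst1r stood at 6.37 on miR-132 replicate 3, where the other miR-132 arrays reached 5.50 at most. Phlda1 stood at 6.63 on miR-132 replicate 1, above 6.23 for the next array. Pdgfd stood at 6.68 on control replicate 2, above 6.23 for the next array.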

How the results depend on the processing

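No gene passed limma's adjusted threshold with all arrays, and leaving out 1 array gave 0 to 52, with 52 without miR-132 replicate 3. Genes at an unadjusted p under 0.05 numbered 1426, 2636 with no level filter, 949 without control replicate 5 and 2482 without miR-132 replicate 3. Growth factor and receptor genes at that p numbered 1 (Met), and 0 under quantile normalization, the replicate block, the hybridisation covariate and without miR-132 arrays 2 and 5. Leaving out 1 array gave 0 to 3, with 3 (Met, Fgf2, Fgfr3) without miR-132 replicate 3. Met, Fgf2 and Fgfr3 kept their direction in all settings tried. Whether replicate numbers pair the samples cannot be told from these values. The deviations of same-numbered arrays correlated at -0.03 to 0.16, and 2 of 5 miR-132 arrays were closest to their own number. With the replicate block Met stood at -0.24 (unadjusted p of 0.0803) and 1273 genes had an unadjusted p under 0.05.
Under quantile normalization Fgf7 was 0.040, Fgf10 -0.030, Fgfr1 0.044, Pdgfrb 0.025, and r was 0.049 for Fgf10 with Fgfr2 and 0.80 for Fgf2 with Fgfr1, which then passed adjustment. With array weights Fgf7 was 0.044, Hgf 0.019 and Pdgfrb 0.050. With median centring Fgf10 was -0.014, Pdgfa -0.054 and Pdgfb -0.030. With the hybridisation covariate Fgfr2 was 0.33 and Pdgfd -0.075. Without miR-132 arrays 2 and 5 Fgf7 was 0.067, Fgf10 -0.026, Pdgfa -0.047 and Pdgfb -0.014. With group means taken out r was 0.026 for Fgf10 with Fgfr2, and without the 2 farthest arrays it was -0.19 for Pdgfa with Pdgfrb. Leaving out 1 array gave -0.22 to 0.10 for Fgf7, -0.004 to 0.12 for Fgf10, -0.21 to 0.0275 for Fgfr1, -0.28 to 0.023 for Hgf, -0.04 to 0.05 for Pdgfa, -0.34 to 0.0865 for Pdgfrb, -0.0385 to 0.18 for Pdgfrl and -0.12 to 0.22 for Pdgfd. The cause was not tested. Each gene had 1 feature, so averaging over features was not run. The marker relations, counts of means by direction and level bands were chosen after seeing the data.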
